A study of Homo sapiens with 4 samples.

Results

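Chromosomes 4 and 13 held 3792 of 78859 replication-initiation regions mapped in RepID-proficient cells, 13364 of 159667 mapped in RepID-depleted cells, and 1031 of 24222 regions bound by RepID. The regions were selected by chromosome name alone, and the pair of chromosomes was itself chosen from these data, because the ratio of initiation regions in RepID-depleted cells to those in RepID-proficient cells was high there. That ratio and every other comparison of the same lists are therefore given as descriptions, with no test. Chromosome 4 contributed 2191, 8724 and 667 regions to the 3 counts and chromosome 13 contributed 1601, 4640 and 364.

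Nascent strands, the short DNA strands that mark where replication has just begun, were sequenced from HCT116 cells, a human colorectal carcinoma line, either proficient in RepID (WT) or stably depleted of it by CRISPR-Cas9 under puromycin selection (KO). RepID binding was mapped by ChIP-Seq with an anti-FLAG antibody in U2OS, a human osteosarcoma line that stably expressed RepID with a 3xFLAG tag, so binding and initiation were not measured in the same cell line. Each condition was 1 library, and no spread between replicates exists. Each list gives the borders of its regions and a score for each. Sequencing depth is unknown, since read totals are not listed, and its part in the difference in list length was not tested.

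Replication of human chromosomes starts from many origins, and which of them are used varies from cell to cell. Origins are dense in early-replicating, gene-rich chromatin and sparse in the late-replicating, gene-poor chromatin that makes up much of the long arms of chromosomes such as 4 and 13. RepID, also known as PHIP and DCAF14, is a member of the family of proteins that bring substrates to the CUL4-DDB1 ubiquitin ligase, and it binds chromatin at a subset of origins.

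The label gene-poor held for both chromosomes. A RefSeq gene table of another build (GRCh38.p14), used only to count genes, listed 770 protein-coding genes for chromosome 4 and 338 for chromosome 13. Over the span that the lists covered, 188 Mb and 96.0 Mb, this came to 4.10 and 3.52 genes per Mb. Chromosome 13 had the lowest value of the 22 autosomes, chromosome 18 came next at 3.61, and chromosome 4 followed. The median of the other 20 autosomes was 6.80 genes per Mb.

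WT initiation regions were sparser on these chromosomes than on any other autosome. Chromosome 4 had 11.7 WT regions per Mb (95% Poisson interval 11.2 to 12.2) and chromosome 13 had 16.7 (15.9 to 17.5), against 19.9 on chromosome 3, the next lowest, and a median of 28.0 over the other 20. KO regions were also at their sparsest here, with 46.4 per Mb (45.4 to 47.4) on chromosome 4 and 48.3 (46.9 to 49.7) on chromosome 13, but the distance from the other autosomes was far smaller. Chromosome 21 was next at 50.5 and the median of the other 20 was 59.7. The intervals here and below cover counting error only, and since neighbouring regions are not independent they are too narrow.

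The KO list thus held 3.98 regions for each WT region on chromosome 4 (3.80 to 4.17), the highest ratio of the autosomes, and 2.90 on chromosome 13 (2.74 to 3.07). At the border of the choice, chromosome 13 could not be told apart from chromosome 3, whose ratio was also 2.90. The median of the other 20 autosomes was 2.02, and on chromosome 19, the most gene-dense, the ratio was 0.733. When the KO list was cut to its 78859 highest-scoring regions, as many as in the WT list, the ratios on chromosomes 4 and 13 fell to 1.68 and 1.25.

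**Figure D1:**
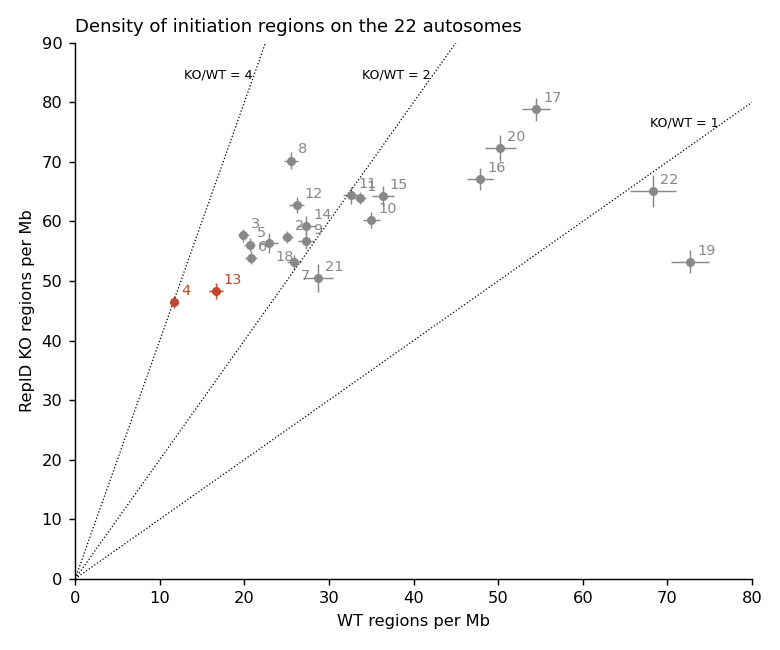
Number of RepID KO initiation regions per Mb against number of WT regions per Mb for the 22 autosomes, with 95% Poisson intervals as bars and dotted lines at KO to WT ratios of 1, 2 and 4. Chromosomes 4 (11.7 WT and 46.4 KO regions per Mb) and 13 (16.7 and 48.3) lie at the lower left, with the lowest values on both axes.

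WT regions covered 4.02% of chromosome 4 and 4.59% of chromosome 13, against a lowest value of 6.24% and a median of 11.4% on the other autosomes. KO regions covered 14.4% and 14.9%, against a lowest value of 16.5% and a median of 20.3%. The covered length rose 3.57 times from WT to KO on chromosome 4, the largest factor of the autosomes, and 3.26 times on chromosome 13, where chromosome 8 had 3.34. The median KO region was wider than the median WT region, at 2600 against 2000 bp on chromosome 4 and 2800 against 2000 bp on chromosome 13.

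The WT regions were concentrated near the start of chromosome 4 and toward both ends of the span that the lists covered on chromosome 13. The first 10 Mb of chromosome 4 (20801 to 10020800, hg19), at the tip of its short arm, held 698 WT regions, 31.9% of the chromosome's total. The same stretch held 666 KO regions, only 7.63% of the KO total, so that the KO to WT ratio there was 0.954. WT regions covered 44.0% of it and KO regions 25.0%. On chromosome 13 the last 5 Mb (110091601 to 115091600) held 396 WT regions, 24.7% of the total, and 362 KO regions, 7.80% of the total, a ratio of 0.914. There the covered shares were 32.7% for WT and 25.5% for KO. The regions bound by RepID were gathered in the same places, with 146 of 667 in the first 10 Mb of chromosome 4 and 135 of 364 in the last 5 Mb of chromosome 13.

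The last 10 Mb of chromosome 4 held 179 WT regions, 8.17% of the total, and 451 KO regions, a ratio of 2.52. On chromosome 13 no list held a region before 19042001, so its first 10 Mb here (19042001 to 29042000) are not the start of the chromosome. They held 356 WT regions, 22.2% of the total, and 540 KO regions, a ratio of 1.52. The last 10 Mb of chromosome 13, which include the 5 Mb above, held 430 (26.9%) and 640, a ratio of 1.49. Without the first and last 10 Mb, chromosome 4 held 1314 WT and 7607 KO regions, a ratio of 5.79, and chromosome 13 held 815 and 3460, a ratio of 4.25. The long arm of chromosome 4 was poorer in WT regions than the short arm, with 8.06 against 21.7 per Mb, whereas KO regions stood at 43.2 against 55.4 per Mb. KO regions covered 12.9% of that long arm and WT regions 1.65%.

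**Figure D2:**
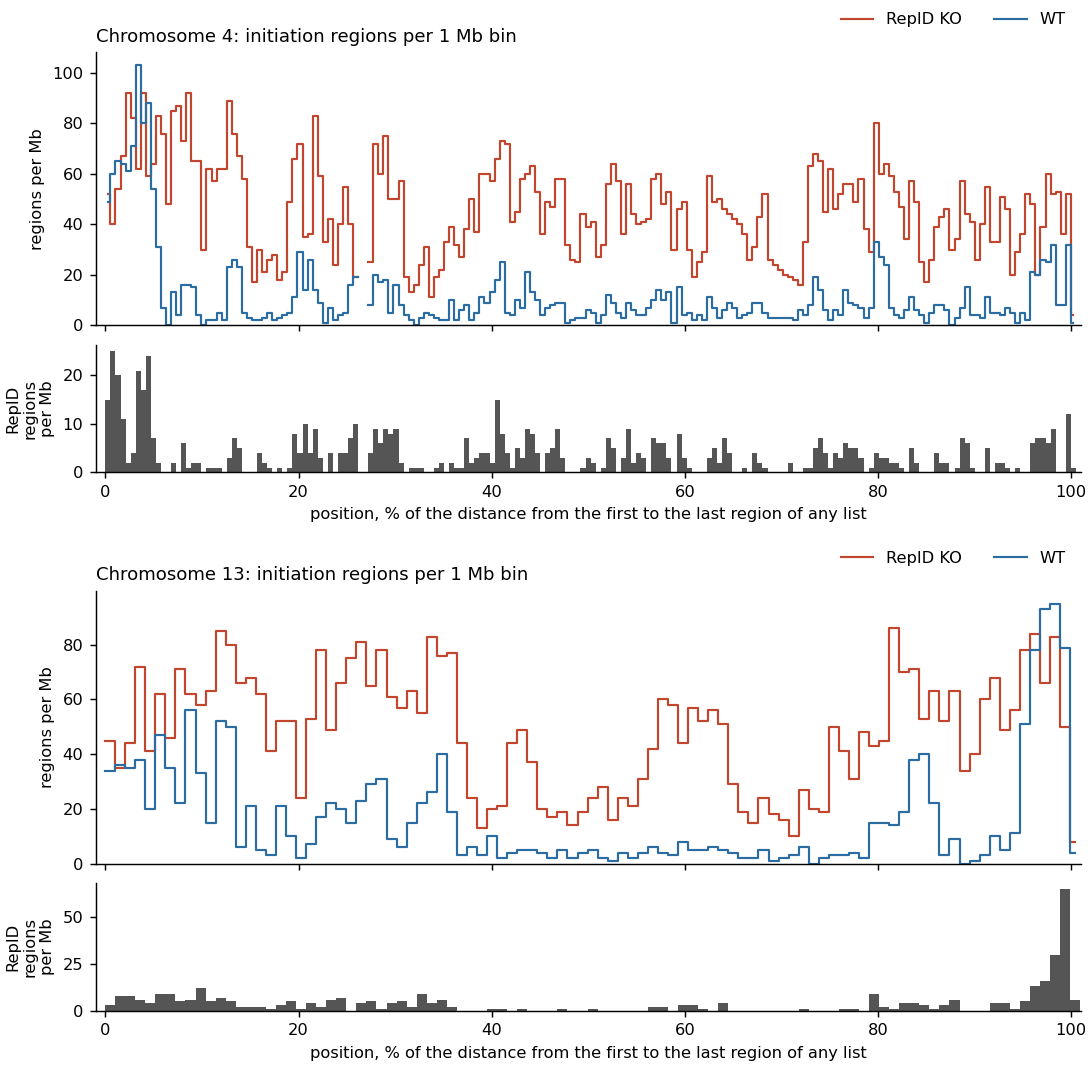
Number of WT (blue) and RepID KO (red) initiation regions per 1 Mb bin, and of RepID-bound regions (grey bars), against position in percent of the distance from the first to the last region of any list, with the 2 bins of chromosome 4 that hold no region left blank. WT counts peak at 103 near the start of chromosome 4 and at 95 near the end of chromosome 13, while KO counts stay between 4 and 92 and between 8 and 86. The lows of 4 and 8 are in the last bin of each chromosome, which the lists span only in part.

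To see where the additional KO regions lay, each chromosome was divided into bins of 1 Mb, and each region was given to the bin of its centre. Of 287 bins that held any region, 277 held more KO than WT regions, 2 held as many and 8 held fewer, where 84.2% of all bins of the genome, the sex chromosomes included, and 87.5% of those of the other 20 autosomes held more KO than WT regions. This count comes from the contrast by which the chromosomes were chosen. WT counts ran from 0 to 103 per bin on chromosome 4 and from 0 to 95 on chromosome 13, with a median of 6 on both. KO counts ran from 4 to 92 and from 8 to 86, with medians of 46 and 50. The lows of 4 and 8 were in the last bin of each chromosome, where the lists ended at 191044400 and 115091600. The lowest KO counts in the other bins were 11 and 10. Relative to its mean, the WT count varied about 3 times as much as the KO count, with a coefficient of variation of 1.37 against 0.399 on chromosome 4 and of 1.22 against 0.446 on chromosome 13. For the KO list cut to its top-scoring regions it was 0.599 and 0.626, between the other values. The 10 bins richest in WT regions held 31.7% of the WT regions of chromosome 4 and 40.0% of those of chromosome 13, while the 10 richest in KO regions held 9.92% and 17.6% of the KO regions.

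KO and WT counts still rose and fell together along the chromosomes. Across bins the Spearman correlation of WT with KO counts was 0.63 on chromosome 4 (190 bins) and 0.72 on chromosome 13 (97 bins), and that of WT with RepID counts was 0.75 and 0.81. Bins are neighbours within 1 library each and share mappability and base composition, so these values are descriptions.

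The mean excess per bin was largest at intermediate WT numbers. The 17 bins with over 49 WT regions had a mean difference of 0, but single bins went both ways. For example, chromosome 13 from 30000001 to 31000000 held 52 WT and 85 KO regions. Chromosome 4 from 6000001 to 7000000 held 103 WT and 62 KO regions. The 6 bins that held a region of another list but no WT region had 29.7 KO regions on average. Bins without a region of any list, 21 on these chromosomes, were left out. That these 6 bins held KO regions therefore follows largely from the choice of bins. The other 281 bins were divided into 4 classes at the quartiles of their WT count (4, 6 and 15 regions). In the 97 bins with up to 4 WT regions, the mean was 2.80 WT and 32.6 KO regions, an excess of 29.8 per bin. In the 45 bins of the next class it was 5.36 and 41.8, an excess of 36.5. In the 69 bins of the class above it was 10.2 and 53.4, an excess of 43.3, the largest. In the 70 richest bins it was 36.8 and 63.7, an excess of 26.8. The KO to WT ratio therefore fell from 11.6 through 7.81 and 5.26 to 1.73, while the KO density itself rose from class to class. Part of that fall in the ratio is built in, because the WT count both divides it and defines the classes. Of the total excess of 9572 regions, 30.2% lay in the poorest of the 4 classes, 17.1% and 31.2% in the middle ones and 19.6% in the richest. These classes held 97, 45, 69 and 70 bins, so the shares also follow the size of the class.

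Sorting bins by their own WT count makes WT low in the low class by construction, so the bins were also sorted by the mean WT count of the bins on either side. The excess was then 26.4, 36.3, 43.1 and 29.7 regions per bin from the poorest to the richest surroundings, so that the middle classes again had the larger excess, and the poorest class in place of the richest had the lowest. The KO to WT ratio was then 7.18, 6.77, 5.63 and 1.88, a smaller fall over the first 3 classes than with the bins' own counts. Covered sequence gave a similar picture with the bins' own classes. From the poorest to the richest class, WT cover rose from 0.546% through 0.951% and 1.97% to 13.8%, and KO cover rose from 8.97% through 11.9% and 16.2% to 22.2%. The bins without a WT region had a KO cover of 8.34%.

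With the KO list cut to the size of the WT list, the KO count still exceeded the WT count by 8.59, 10.0 and 12.6 regions per bin in the first 3 classes, and was lower by 4.71 in the richest (a difference of -4.71). The median score of KO regions went from 110 in the poorest class through 113 and 120 to 131 in the richest, and the 178 KO regions of the 6 bins without a WT region, with a median of 118, did not follow that order. The scores were compared only within the list, and their meaning is not given in the sources used here.

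On the other 20 autosomes, bins sorted by the same limits had higher mean KO counts in each of the 4 classes but not among bins without a WT region. The 36 bins without a WT region held 25.2 KO regions on average there, against 29.7 on chromosomes 4 and 13. From the poorest to the richest class their mean KO counts were 38.5, 50.2, 56.8 and 69.6, against 32.6, 41.8, 53.4 and 63.7 on chromosomes 4 and 13, and the excess was 35.7, 44.7, 46.5 and 19.6. WT numbers were not matched in the richest class, where the 1332 bins of the other autosomes held 66588 WT regions and the 70 bins of chromosomes 4 and 13 held 2578. The classes were also filled differently, since 97 of 287 bins on chromosomes 4 and 13 fell in the poorest class and 70 in the richest, whereas 415 and 1332 of 2447 did on the other autosomes.

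**Figure D3:**
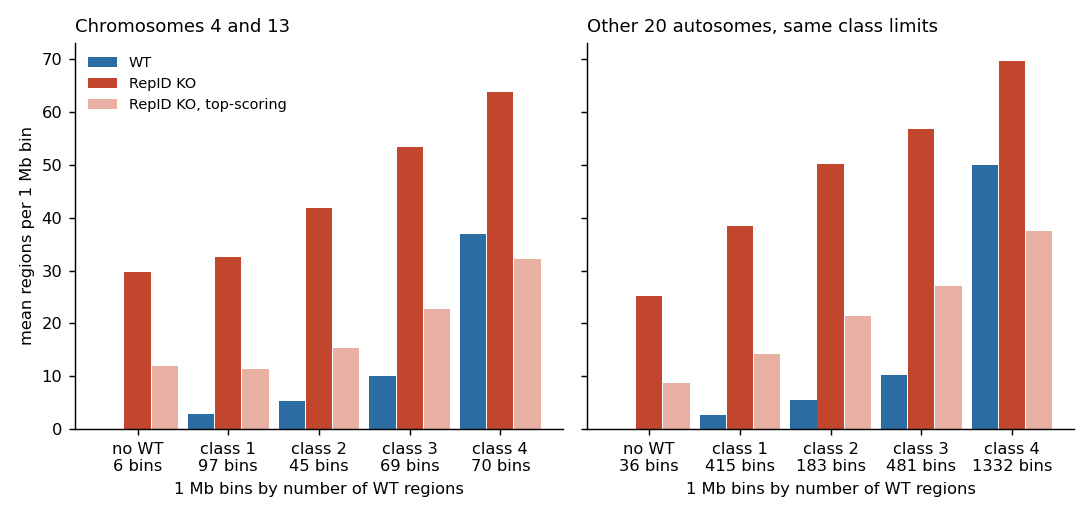
Mean number of WT regions (blue), RepID KO regions (red) and RepID KO regions of the list cut to its top-scoring regions (pale red) per 1 Mb bin, for bins without a WT region and for classes 1 to 4 (up to 4, 5 to 6, 7 to 15 and over 15 WT regions), with the number of bins under each class. On chromosomes 4 and 13 the KO mean rises from 32.6 to 63.7 over classes 1 to 4 while the WT mean rises from 2.80 to 36.8.

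Named bins show both extremes. On chromosome 4 the bins with the most WT regions lay from 6000001 to 7000000 (103 WT, 62 KO and 21 RepID regions), from 8000001 to 9000000 (88, 59 and 24) and from 7000001 to 8000000 (80, 92 and 17). In the bin from 8000001 to 9000000, WT regions covered 67.5% of the sequence and KO regions 19.1%. Only a few Mb further on lay the bins with the largest KO excess, from 14000001 to 15000000 (4 WT, 87 KO and 0 RepID regions), from 16000001 to 17000000 (16, 92 and 1) and from 13000001 to 14000000 (13, 85 and 2). These bins were picked for their KO excess, and their high KO and low WT numbers follow from that choice.

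On chromosome 13 the richest WT bins were the 3 adjacent ones from 113000001 to 114000000 (95 WT, 83 KO and 30 RepID regions), from 112000001 to 113000000 (93, 66 and 16) and from 114000001 to 115000000 (79, 50 and 65). They were also the bins where WT exceeded KO most. The largest KO excess stood from 97000001 to 98000000 (14 WT, 86 KO and 1 RepID region), from 40000001 to 41000000 (17, 78 and 2) and from 32000001 to 33000000 (6, 66 and 2).

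The median distance between the centres of neighbouring WT regions was 24.8 kb on chromosome 4 (95% interval of the median 22.4 to 27.0) and 16.4 kb on chromosome 13 (14.6 to 17.7), against 11.0 kb on the other autosomes. For KO regions it was 13.2 kb (12.9 to 13.6) and 12.3 kb (11.8 to 12.7), against 10.7 kb. The upper quartile of the WT distances was 85.4 kb on chromosome 4 and 47.7 kb on chromosome 13. These distances were longer in lists limited by score, which also hold fewer regions, and the part of score itself was not tested. Among regions at or above the median score of their list, the WT median was 29.2 kb and the KO median 26.2 kb on chromosome 4, and 27.7 and 22.6 kb on chromosome 13.

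Long intervals without a WT region made up most of both chromosomes. Gaps of 100 kb or more between WT regions numbered 472 on chromosome 4, with 141 Mb in all, and 223 on chromosome 13, with 65.4 Mb. Gaps of 500 kb or more numbered 64 and 31, with 52.7 and 24.4 Mb, and none of these 95 was free of KO regions. Between KO regions there were 2 gaps of that length on chromosome 4 and 1 on chromosome 13. The longest WT gap of chromosome 4 ran from 179337001 to 180978800 (1641.8 kb) and held 41 KO regions, and the next, from 20257401 to 21857000 (1599.6 kb), held 90. On chromosome 13 the longest ran from 103905201 to 105363000 (1457.8 kb) and held 50, and the next, from 68746201 to 69994400 (1248.2 kb), held 21. No RepID region lay in any of these 4 gaps, nor in the other 6 of the 5 longest on each chromosome.

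The density of KO regions in a gap declined with the gap's length. Taken over both chromosomes, it was 65.9 per Mb in gaps under 20 kb, 56.0 in gaps of 20 to 100 kb, 44.6 in gaps of 100 to 500 kb and 32.5 in longer ones. On the other autosomes the values were 62.1, 60.5, 51.4 and 40.4. RepID regions in the gaps declined more steeply, from 2.56 per Mb in the shortest gaps of chromosomes 4 and 13 through 0.983 and 0.578 to 0.130 in the longest, which held 10 RepID regions.

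The same decline appeared base by base. KO regions covered 36.2% of the sequence inside WT regions on chromosome 4 and 41.1% on chromosome 13. Within 2 kb outside a WT region the share was 29.3% and 28.5%, at 10 to 20 kb it was 14.7% and 14.9%, at 100 to 200 kb 10.9% and 11.4%, and at 400 to 800 kb 9.23% and 5.95%. The other autosomes had a higher KO cover at each distance up to 200 to 400 kb, for example 18.8% at 10 to 20 kb and 13.8% at 100 to 200 kb. At 400 to 800 kb their value of 8.67% lay between those of chromosomes 4 and 13.

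**Figure D4:**
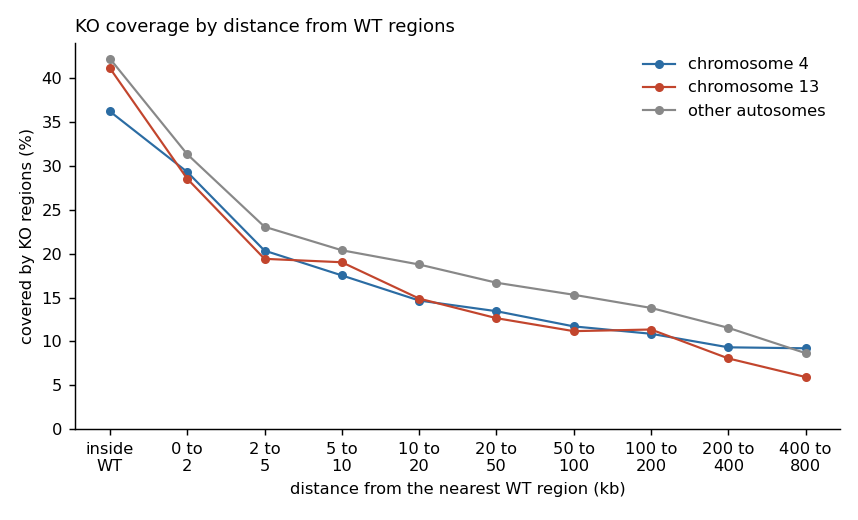
Share of the sequence covered by RepID KO regions inside WT regions and in successive distance ranges from the nearest WT region, on chromosome 4 (blue), chromosome 13 (red) and the other 20 autosomes (grey). KO cover falls from 36.2% and 41.1% inside WT regions to 9.23% and 5.95% at 400 to 800 kb.

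Most KO regions of these chromosomes were not at WT regions. More than 2 kb from any WT region lay 81.7% of the KO regions of chromosome 4 (7126 of 8724, exact binomial 95% interval 80.9 to 82.5) and 75.4% of those of chromosome 13 (3498 of 4640, 74.1 to 76.6), where 63.3% of all KO regions of the genome did. WT density was lower on both than elsewhere, and its part in this share was not tested. The distant KO regions had a median width of 2600 bp on both chromosomes, against 3400 and 3200 bp for those near a WT region, and median scores of 115 and 116 against 144 and 141. Among KO regions of the list cut to its top scores, the distant share was 74.6% and 67.9%, where 54.7% of that cut list over the genome and 53.3% on the other autosomes were as distant. The highest-scoring KO regions away from WT regions lay on chromosome 4 from 190197801 to 190203800 (score 773) and from 10234601 to 10249800 (score 743), and on chromosome 13 from 49491001 to 49501800 (score 484) and from 43811601 to 43821800 (score 464).

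RepID regions were also sparse. Chromosome 4 had 3.55 per Mb (3.28 to 3.83), the lowest of the autosomes, and chromosome 13 had 3.79 (3.41 to 4.20), with chromosome 21 between them at 3.72 and a median of 8.59 over the other 20. Of the RepID regions, 87.1% on chromosome 4 (581 of 667, 84.3 to 89.6) and 88.2% on chromosome 13 (321 of 364, 84.4 to 91.3) lay within 2 kb of a WT region, where 91.1% of all RepID regions did. Within 2 kb of a KO region lay 46.0% (42.2 to 49.9) and 42.3% (37.2 to 47.6), where 51.8% did genome-wide, although KO regions outnumbered WT regions on both chromosomes. Only 3.05% and 2.89% of KO regions lay within 2 kb of a RepID region, against 6.87% on the other autosomes. The longest interval without a RepID region, from 80917180 to 88329935 on chromosome 13 (7412.76 kb), held 20 WT and 141 KO regions.

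The highest-scoring RepID region of the whole list lay on chromosome 4 from 62065796 to 62069001 (score 3233.06), over a WT region, with no KO region within 21199 bp. On several other chromosomes, among them 1, 2 and 6, the highest RepID score was exactly 3100. Whether the score has a ceiling near that value was not tested, so the top rank need not mark the strongest binding. The next on chromosome 4, from 30720918 to 30723643 (score 2401.25), overlapped a WT region and a KO region. So did the one after it in score, from 66533953 to 66535828 (score 1709.33). The highest on chromosome 13, from 112709719 to 112712353 (score 2055.87), overlapped a WT region and lay 647 bp from the nearest KO region. The next highest there, from 112726366 to 112728085 and from 114895224 to 114898017, likewise overlapped WT regions and no KO region.

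WT regions that shared 1 bp or more with a KO region were counted as kept. On chromosome 4, 56.0% of WT regions were kept (1226 of 2191, 53.8 to 58.0) and on chromosome 13, 56.7% (908 of 1601, 54.2 to 59.2), where 60.6% of all WT regions were. A KO region covered the centre of the WT region in 40.3% and 42.4%, where 44.9% did genome-wide. The kept share rose with the number of WT regions in the bin, from 39.0% in the poorest of the 4 classes (106 of 272, 33.1 to 45.0) through 47.7% and 53.4% to 59.7% in the richest (57.8 to 61.6). KO cover rose along the same classes, from 8.97% to 22.2%, and its part in the kept share was not tested. With bins sorted by the WT count of adjacent bins, the kept share rose less, from 44.3% through 50.1% and 57.4% to 59.0%.

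WT regions with a RepID region at a distance of up to 2 kb were counted as RepID-bound. They made up 19.0% on chromosome 4 (417 of 2191, 17.4 to 20.7) and 15.0% on chromosome 13 (240 of 1601, 13.3 to 16.8), where 18.7% of all WT regions were bound. Bound WT regions were kept less often. On chromosome 4, 47.5% of bound (198 of 417) and 57.9% of unbound WT regions (1028 of 1774) were kept, a difference of -10.5 percentage points (Newcombe 95% interval -15.7 to -5.14). On chromosome 13 it was 45.0% (108 of 240) against 58.8% (800 of 1361), a difference of -13.8 points (-20.5 to -6.93). The other autosomes had a difference of -5.84 points (-6.75 to -4.93). Whether chromosomes 4 and 13 differ from them in this respect was not tested.

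At the centre of the origin the separation was wider. A KO region lay over the centre of 21.1% of bound and 44.8% of unbound WT regions on chromosome 4, a difference of -23.7 points (-28.0 to -18.9), and of 17.9% and 46.7% on chromosome 13, a difference of -28.8 points (-33.9 to -22.9). The other autosomes had 30.5% and 49.4%, a difference of -18.9 points (-19.7 to -18.0).

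Width and score moved with RepID binding. Bound WT regions had a median width of 2400 bp on chromosome 4 and 2600 bp on chromosome 13, against 1800 bp for unbound ones on both, and median scores of 227 and 224.5 against 88 and 91. The comparison was therefore also made within classes of width. Among WT regions under 2 kb, 36.4% of bound and 49.1% of unbound ones were kept on chromosome 4, and 23.3% and 47.9% on chromosome 13. Among those of 2 to 5 kb it was 43.9% and 64.7%, and 51.6% and 66.6%. Among those of 5 kb or more it was 72.2% and 75.0% on chromosome 4, a difference of -2.78 points whose interval (-14.1 to 7.38) includes 0, and 63.4% and 81.3% on chromosome 13. On the other autosomes bound regions were also kept less often in each width class, by -17.6, -13.4 and -2.31 points from the narrowest to the widest. With unbound regions weighted to the score and width of the bound ones, an alternative added after seeing the data, the differences were -7.65 and -14.4 points.

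**Figure D5:**
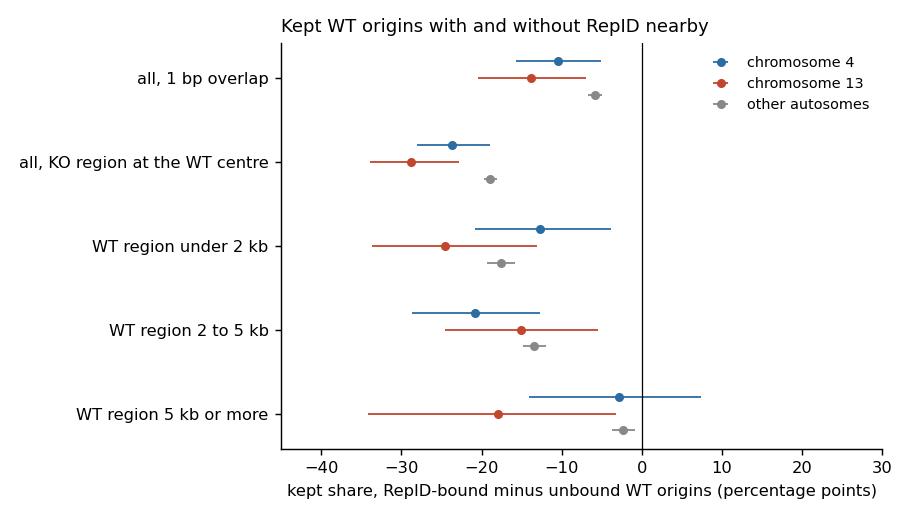
Kept share of RepID-bound minus that of unbound WT regions, in percentage points with Newcombe 95% intervals, for all WT regions by 1 bp of overlap, for a KO region at the WT centre, and by width of the WT region. For all regions the points lie at -10.5 (chromosome 4, blue), -13.8 (chromosome 13, red) and -5.84 (other autosomes, grey).

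The strongest WT origins gave examples of each kind. The highest-scoring WT region of chromosome 4, from 190986001 to 191014400 near the end of the long arm, overlapped 1 RepID region, and KO regions covered 85.9% of it. The bound WT regions from 1002001 to 1047200 and from 1532201 to 1585600 counted as kept although KO regions covered only 6.19% and 9.36% of them. At the tip of the short arm, 3 other bound WT regions overlapped no KO region. They lay from 1784001 to 1819000, from 2246801 to 2278600 and from 665001 to 684400, with scores of 10100, 8058 and 6732, and their nearest KO regions were 13800, 5200 and 10000 bp away. The unbound WT region from 1735401 to 1783000 (score 14999) overlapped none either, with a KO region directly at its border.

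On chromosome 13 the WT region from 114513401 to 114531000 (score 4087) overlapped 7 RepID regions, and KO regions covered 13.6% of it. The bound WT region from 113541601 to 113555600 (score 3208) overlapped 4 RepID regions and no KO region, with the nearest 400 bp away. The next ones in score without a KO region, from 114740001 to 114746200 and from 114820601 to 114828000, scored 1476 and 1097 and were 16600 and 5200 bp from the nearest.

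An interval on chromosome 4 stood apart from its surroundings. From 184313401 to 185661000 (1347.6 kb), the KO list held 1 region, of 400 bp and score 38, where the 1 Mb before and the 1 Mb after held 54 and 72 KO regions. WT initiation was present in the interval, with 22 regions (16.3 per Mb, above the chromosome's 11.7), and the flanking 1 Mb held 26 and 33. The WT regions scored between 30 and 287 (median 76). None of the 22 WT regions was kept, which follows closely from picking the interval for its lack of KO regions, and 4 of them were RepID-bound. From these lists a loss of initiation in this interval cannot be told apart from a loss of its DNA in the KO cells. The U2OS list had 10 RepID regions there, with scores from 102 to 518. Of the 8 windows of 1 Mb or more on the autosomes with at most 1 KO region, some of which overlap each other, this was the only one outside chromosomes 9 and 10. Leaving the interval out moved the kept share of chromosome 4 from 56.0% to 56.5%.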

How the data were processed

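The submitters' processing notes name the build hg19 and the programmes MACS and SICER. For RepID, the authors called regions with MACS against genomic input and deposited its score. For nascent strands the paper describes SICER, in U2OS cells and with a window of 200 bp, and the HCT116 regions lie on a grid of the same size. Which programme was run on HCT116, and the meaning of its whole-number score, are not given in the sources used here. The HCT116 genomic control was not analysed here. All regions were used as deposited, with positions counted from 1, and comparisons of scores stayed within lists.

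Overlaps, gaps, cover and counts were computed in SciPy 1.17.1, pandas 2.3.3 and numpy 2.4.6 under Python 3.11.15 (figures in matplotlib 3.10.9), and tested on simulated data against bedtools 2.31.1. The measured span of a chromosome ran from the first to the last region of any list, without stretches of 1 Mb or more free of all lists (on chromosome 4, 49621801 to 52660400). Gene names and sequences are not given, since no genome or annotation of hg19 was used here. Shares have exact binomial and differences Newcombe 95% intervals. The 4 samples were 1 library per condition, so no test between conditions was made. Named regions were the 3 highest-scoring of each list, of bound WT regions with and without KO overlap and of KO regions away from WT, the 3 bins with the most WT or RepID regions or the largest differences either way, and the 5 longest WT gaps, per chromosome, of which a selection is printed. Intervals poor in KO or RepID regions were looked for after seeing the data. The members and lists were chosen with earlier results of these data known. Alternatives covered list length, score, overlap, distance, bin size and chromosome ends.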

Additional observations from a re-analysis of the deposited data

How the results depend on the processing

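Of 85 alternatives over 22 results, 23 stayed within the interval of the main value, 61 moved outside it and 1 reversed a direction. Only ratios and differences could reverse, since shares, distances and densities cannot fall below 0. The difference in kept share between RepID-bound and unbound WT regions was below 0 in all 16 alternatives for it. With the KO list cut to its top-scoring 78859 regions, the ratio of KO to WT regions was 1.68 on chromosome 4 and 1.25 on chromosome 13, KO cover 9.12% and 9.48%, the kept share 38.5% and 38.0%, and the share of KO regions away from WT regions 74.6% and 67.9%. In the bins poorest and richest in WT regions, the KO minus WT difference per bin was then 8.59 and -4.71, so that in the richest bins the direction reversed. The cut list holds fewer KO regions by construction.

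Without the outermost 5 Mb at either end, the ratio was 4.57 and 3.88, WT cover 2.92% and 2.76%, KO cover 14.0% and 14.3%, and RepID density 3.18 and 2.31 per Mb. With regions at or above the median score of their list, WT cover was 3.05% and 3.08%, KO cover 9.20% and 9.58%, the bound share 12.2% and 7.62%, RepID density 1.72 and 1.56 per Mb, the median WT distance 29.2 and 27.7 kb and the median KO distance 26.2 and 22.6 kb. Between edges in place of centres, the median distances were 20.2 and 13 kb for WT and 10.0 and 9 kb for KO, and with regions under 1 kb apart merged they were 27.6 and 18.4 kb for WT and 14.4 and 13.4 kb for KO.

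With 50% of the WT region covered, the kept share was 41.3% and 43.1% and the bound minus unbound difference -24.1 and -30.1 points. Counted at the WT centre, that difference came to -23.7 and -28.8 points. With a gap of at most 2 kb the kept share was 66.9% and 68.1%. The share of KO regions away from WT regions was 85.4% and 80.7% without any overlap and 76.9% and 69.0% at over 5 kb. At 5 kb the bound share was 21.4% and 18.9%.

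The KO minus WT difference in the poorest bins was 26.4 by adjacent bins, 33.9 and 28.0 per Mb in bins of 500 kb and 2 Mb, 31.9 with class limits from all autosomes, and, with limits redrawn within each chromosome, 31.2 for chromosome 4 and 27.0 for chromosome 13. In the richest bins it was 29.7 by adjacent bins, 29.7 and 19.0 with limits redrawn within chromosomes 4 and 13 (26.9 and 26.8 with the common limits), and 0 with the limits of all autosomes, which left 17 bins with over 49 WT regions. Why these values moved was not tested. Of the alternatives, 5 were added after seeing the data. No paired analysis was possible because each condition is 1 library. The limits of these lists are their unknown depth, the absence of replicates, RepID binding measured in another cell line and scores of unstated meaning.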
